A study of Mus musculus with 6 samples.

Results

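Chemokines are small secreted proteins that direct the migration of leukocytes. The 10 chemokine genes described here are Cxcl1, Cxcl5, Cxcl15, Cxcl10, Cxcl12, Ccl2, Ccl7, Ccl8, Ccl5 and Cx3cl1, out of 18193 genes named by a single symbol on the array. They were chosen by symbol as chemokines that fibroblasts can make, with earlier results of these data known. All 18 probe sets annotated to them alone were read. Each probe set combines several short probes against the same transcript. The RNA came from cultured fibroblasts of mouse embryos that had been immortalized, and 6 Affymetrix arrays were hybridised. The groups were PCAF-/-;GCN5-/- (3 arrays) and PCAF-/-;GCN5+/- (3 arrays), called GCN5-/- and GCN5+/- from here on.

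PCAF (gene Kat2b) and GCN5 (gene Kat2a) are related histone acetyltransferases, and the study asked which genes depend on them. All cells of both groups lacked PCAF and were selected in puromycin at 2.5 µg/ml in medium with 10% serum. The design describes PCAF knockout cells with a conditional GCN5 allele given a retrovirus that carries either Cre recombinase or vector alone. The array labels give the genotype and not the virus. GCN5-/- was therefore read as Cre and GCN5+/- as vector, so virus and genotype cannot be told apart. Line A gave 2 RNAs per genotype (A1 and A2), and line B, immortalized separately, gave 1 (B). No p-value rests on more than 2 lines, those within line A rest on 1, and the spread between the A duplicates may be technical.

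Chemokines are named for the spacing of their first cysteines. CXC chemokines that carry a glutamate-leucine-arginine (ELR) motif act mainly on neutrophils through the receptor CXCR2. Cxcl10 acts on activated T cells through CXCR3, Cxcl12 retains stem and progenitor cells through CXCR4, and most CC chemokines recruit monocytes and other leukocytes through CC receptors. In fibroblasts, transcription of many inflammatory chemokines is induced through the transcription factor NF-kB after interleukin-1, tumour necrosis factor or microbial signals, and Cxcl10 and Ccl5 are also induced by interferons. Cxcl12 is made by resting stromal cells.

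Of the 10 genes, 7 were higher, 2 were lower and 1 was not called in GCN5-/- cells (limma, adjusted p under 0.05 with line as a covariate, 1 probe set per gene). Cxcl1, Cxcl5, Cxcl10, Ccl2, Ccl7, Ccl8 and Ccl5 rose, Cxcl12 and Cxcl15 fell, and Cx3cl1 was not called. Over the 27022 probe sets tested, 4.2% were higher and 4.31% lower. The median log2 change of the 10 genes was 1.40, against -0.01 over all probe sets tested. The genes were chosen with earlier results of these data known, so the counts and the median describe the set and do not test it. The sign was the same in all 3 matched pairs for 9 of the 10, the exception being Cx3cl1. Pairs A1 and A2 come from the same line, and the share of all probe sets with such agreement was not computed, so that count is only descriptive. Array A1, A2 and B of GCN5-/- all lay above every GCN5+/- array for 4 genes (Cxcl10, Ccl2, Ccl5 and Ccl8), an ordering seen at 8.2% of tested probe sets, and 8.79% had the opposite ordering, which none of the 10 genes had. For the other called genes the groups overlapped only across lines. All members passed the level filter at their brightest probe set, and 16 of the 18 probe sets passed it.

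**Figure D1:**
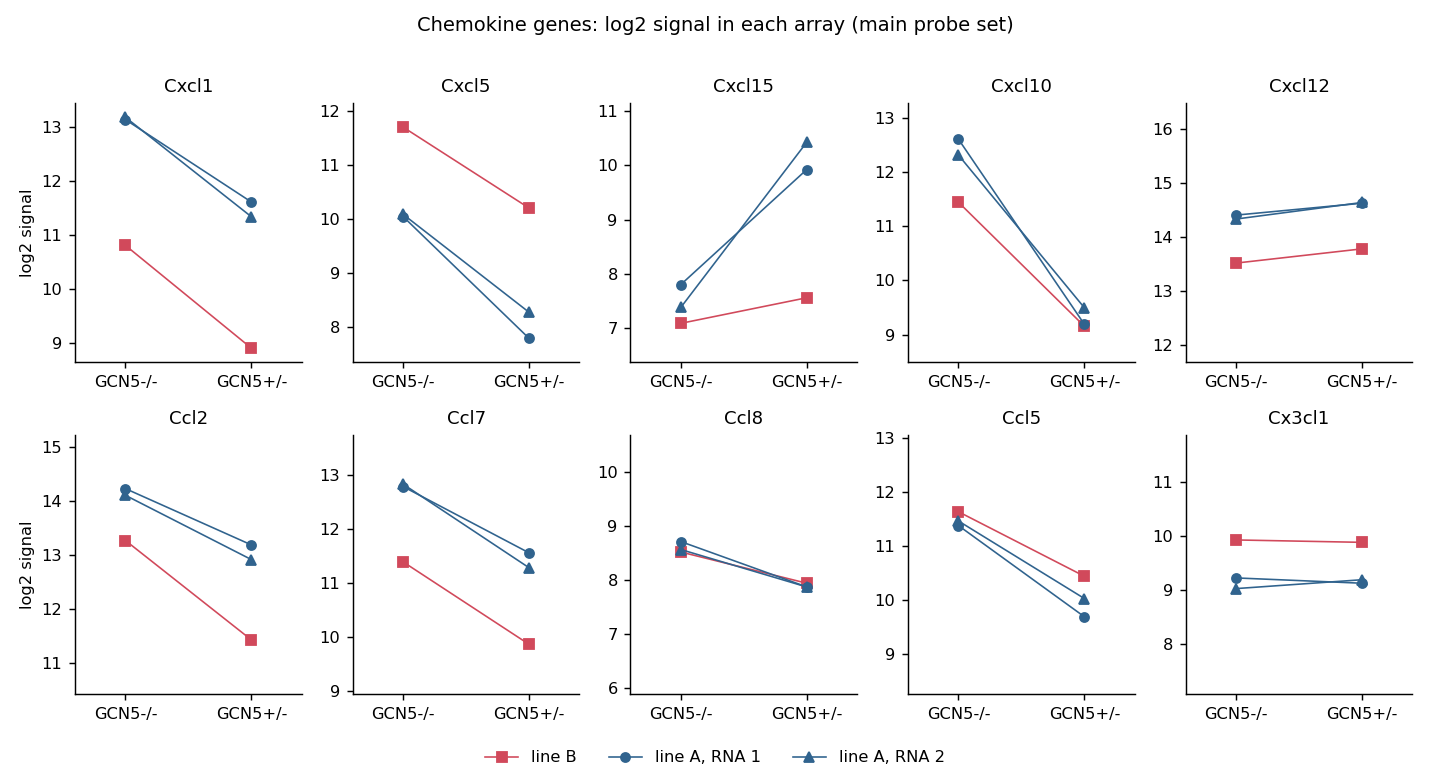
Log2 signal of the brightest probe set of each chemokine gene (vertical axes all span the same number of log2 units), in GCN5-/- arrays on the left and GCN5+/- arrays on the right of each panel; lines join matched arrays, in red for line B and in blue for the 2 RNAs of line A. Cxcl10, Ccl2, Ccl5 and Ccl8 are higher in each GCN5-/- array than in any GCN5+/- array, and Cxcl15 is high only in the 2 GCN5+/- arrays of line A.

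The calls depended on how the lines were handled. Without a line term, 1 of the 10 genes was called (Cxcl10, limma adjusted p = 0.0489), against 0.255% of all tested probe sets. With line as a random block 3 were called (Cxcl10, Ccl5 and Ccl8), against 1.97% of all tested probe sets. The knocked-out gene followed the labels at 2 of 3 probe sets: Kat2a probe set 1422972_s_at was lower in GCN5-/- by a log2 difference of -2.44 ± 0.37 (SE; limma adjusted p = 0.00864), probe set 1422971_at by -0.75 ± 0.13 (limma adjusted p = 0.0157), and probe set 1426783_at, the brightest, was not called (0.18 ± 0.16, limma adjusted p = 0.575). That probe set went against the labels in line A, where it was higher in GCN5-/- by 0.56 and 0.38 in pairs A1 and A2 (0.47 ± 0.09, limma adjusted p = 0.0232), and it differed by -0.41 in pair B. Kat2b, deleted in both groups, had 3 probe sets, all below the level filter. Where the Kat2a probes lie relative to the deleted part was not analysed here. Fibroblast markers were bright, with a mean log2 signal over 10 markers of 11.49 to 11.80 in GCN5-/- and 11.86 to 12.25 in GCN5+/- arrays. Of the 10, 5 were called lower and 0 higher (4.31% and 4.2% over all tested probe sets). Of 12 leukocyte and macrophage markers on the array, 7 passed the level filter. Of these, 1 rose and 0 fell (4.2% and 4.31% over all), the riser being Cd53 (0.85 ± 0.09, limma adjusted p = 0.00167). The mean over the 12 was 7.03 to 7.23 in GCN5-/- and 6.94 to 6.99 in GCN5+/- arrays. Cd68, Csf1r, Cd14, Lyz2, Fcer1g and Cd3e also passed the filter and were not called, and Ptprc, Adgre1, Itgam, Tyrobp and Aif1 were below it. Of endothelial and epithelial markers, 3 and 4 passed the filter and 0 were called by limma (4.2% higher and 4.31% lower over all). The part of other cells in the chemokine values was not tested. In bulk RNA, fewer cells making a transcript and less of it per cell cannot be told apart.

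The neutrophil-attracting ELR chemokines did not move together. Cxcl1 and Cxcl5 rose and Cxcl15 fell, although the 3 genes lie in 1 cluster on chromosome 5. Among protein-coding genes of the RefSeq gene table the order there is Cxcl5, Ppbp, Pf4, Cxcl3, Cxcl15, Cxcl1 and Cxcl2. Cxcl1 is thus the next protein-coding gene after Cxcl15, and the distances between the genes were not compared.

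Cxcl1, a neutrophil chemokine also called KC, had log2 signals of 13.13, 13.18 and 10.81 in GCN5-/- arrays A1, A2 and B, against 11.61, 11.34 and 8.90 in GCN5+/- arrays (probe set 1419209_at). Each GCN5-/- array was above its matched GCN5+/- array, but the line B GCN5-/- array was below both line A GCN5+/- arrays. The change was 1.76 ± 0.09 on the log2 scale (SE), a 3.38-fold rise (limma adjusted p = 7.41e-05). The pairs differed by 1.53, 1.84 and 1.90 in A1, A2 and B, while duplicate arrays lay within 0.27 of each other. The other Cxcl1 probe sets changed by 1.43 ± 0.10 (1457644_s_at) and 0.85 ± 0.12 (1441855_x_at), both called. Their suffixes mark probes that can match more than one transcript.

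Cxcl5, another CXCR2 ligand (also called LIX), had log2 signals of 10.04, 10.08 and 11.70 in GCN5-/- arrays A1, A2 and B, against 7.79, 8.27 and 10.20 in GCN5+/- arrays. Here line B was the higher line in both genotypes, and its GCN5+/- array exceeded both line A GCN5-/- arrays. Cxcl5 rose by 1.86 ± 0.16 (log2, SE), which is 3.62-fold (limma adjusted p = 0.000626), with differences of 2.25, 1.81 and 1.50 in pairs A1, A2 and B.

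Cxcl15 (also called lungkine, and known in mice mainly from lung epithelium) ran the other way. Its log2 signals were 7.79, 7.37 and 7.08 in GCN5-/- arrays A1, A2 and B, against 9.93, 10.43 and 7.55 in GCN5+/- arrays (probe set 1421404_at). Only the line A GCN5+/- arrays were high, and the line B GCN5+/- array lay between the GCN5-/- arrays of line A. Cxcl15 fell by 1.89 ± 0.39 on the log2 scale (SE; limma adjusted p = 0.0244). Its second probe set, 1456428_at, differed by -0.87 ± 0.22, but it passed the level filter only through the GCN5+/- arrays of line A, so it lends no support. The differences were -2.13, -3.06 and -0.47 in pairs A1, A2 and B. The call was lost on leaving out any 1 of the 4 line A arrays, with adjusted p between 0.0695 and 0.102, and when the duplicates of line A were averaged (adjusted p = 0.125).

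Of the ELR chemokines outside the 10 genes, Ppbp (also called Cxcl7) and Cxcl3 passed the level filter and both rose. Ppbp had log2 signals of 10.32, 11.54 and 10.17 in GCN5-/- arrays A1, A2 and B, against 8.20, 8.79 and 8.47 in GCN5+/- arrays, a change of 2.19 ± 0.31 (SE; limma adjusted p = 0.00657). Cxcl3 had 10.02, 10.28 and 6.62 in GCN5-/- arrays, against 8.37, 8.87 and 5.92 in GCN5+/- arrays, a change of 1.25 ± 0.20 (limma adjusted p = 0.0102). Cxcl2 was below the level filter, with signals of 7.84, 7.39 and 7.23 in GCN5-/- arrays and 6.34, 5.73 and 5.86 in GCN5+/- arrays, and a fitted change of 1.51 ± 0.17 in the fit without the filter, where it was called (limma adjusted p = 0.00262). Pf4, which lacks the ELR motif and lies between Ppbp and Cxcl3, was also below the filter, with a fitted change of -0.09 ± 0.09.

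Cxcl1, Cxcl3 and Cxcl2, whose signals were higher in the GCN5-/- array of each pair, share one stretch upstream of their start sites, and it is shown because the kB motif, the element that NF-kB dimers bind, matches there. The sequences are from RefSeq on GRCm38.p6, plus strand, at chr5:90891164-90891194 (Cxcl1), chr5:90786018-90786048 (Cxcl3) and chr5:90903792-90903822 (Cxcl2), each with 10 bases on either side of the match, which is in capitals.
Cxcl1: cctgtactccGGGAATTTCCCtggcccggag
Cxcl3: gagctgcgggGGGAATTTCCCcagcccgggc
Cxcl2: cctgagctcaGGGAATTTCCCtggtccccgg
The 11 capital bases are identical in the 3 genes and lie at -71 to -61 in Cxcl1, -73 to -63 in Cxcl3 and -97 to -87 in Cxcl2 from the annotated start.

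The 250 bases upstream of Cxcl1 (chr5:90890995-90891244, plus strand) are printed with the kB match in capitals. Below them are those of Cxcl15 (chr5:90794284-90794533, plus strand), the neighbour of Cxcl1 among protein-coding genes. Cxcl15 fell, and its stretch holds no match.
Cxcl1: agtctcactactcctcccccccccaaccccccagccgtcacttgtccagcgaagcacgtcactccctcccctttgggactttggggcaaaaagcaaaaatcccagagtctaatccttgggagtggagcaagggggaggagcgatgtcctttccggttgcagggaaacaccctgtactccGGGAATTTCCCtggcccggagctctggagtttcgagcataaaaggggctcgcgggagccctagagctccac
Cxcl15: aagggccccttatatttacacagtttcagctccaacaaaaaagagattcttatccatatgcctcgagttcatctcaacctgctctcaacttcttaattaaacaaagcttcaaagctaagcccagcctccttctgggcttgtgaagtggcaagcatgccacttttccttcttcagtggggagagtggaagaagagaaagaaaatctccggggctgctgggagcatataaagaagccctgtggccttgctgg
The search covered both strands for the kB motif, for the interferon-stimulated response element (ISRE, GAAANNGAAA), for the STAT-binding GAS motif (TTCNNNGAA) and for the AP-1 motif (TGANTCA), with overlapping matches of one motif merged. Of 32851 promoters in the RefSeq table, 3.90% held a kB match in the 250 bases before the start, 2.98% an ISRE, 7.02% a GAS and 6.75% an AP-1 match. Ppbp, in the same cluster, rose by 2.19 ± 0.31 and held no kB match, only an AP-1 match (-204 to -198). Cxcl5, which also rose, had no promoter in the table. A match is a description of the letters and not a measured binding site.

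Cxcl10 (also called IP-10), a T cell chemokine named for its induction by interferon, had the largest change of the 10 genes. Its log2 signals were 12.61, 12.32 and 11.45 in GCN5-/- arrays A1, A2 and B, against 9.19, 9.49 and 9.15 in GCN5+/- arrays. The GCN5-/- arrays were all above the GCN5+/- arrays, by far more than the 0.31 or less between duplicates. Cxcl10 rose by 2.85 ± 0.18 (log2, SE), or 7.21-fold (limma adjusted p = 0.000159), with pair differences of 3.43, 2.83 and 2.30 in A1, A2 and B. It was the single gene of the 10 called under all 15 alternatives, with adjusted p up to 0.0489. The other CXCR3 ligands were dim: Cxcl9 and Cxcl11 were below the level filter, with fitted changes of 0.62 ± 0.23 and 0.41 ± 0.12 that were not called in the fit without the filter (limma adjusted p = 0.192 and 0.0998).

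The Cxcl10 promoter is printed because it held 4 motif matches, and the 6 members with a RefSeq promoter included 2 with a kB match (Cxcl1 and Cxcl10), 1 with an ISRE and 1 with an AP-1 match (both Cxcl10). Its 250 bases lie at chr5:92348890-92349139 on the minus strand of GRCm38.p6. Capitals mark, from the 5′ end, the ISRE (-213 to -204), a kB match (-159 to -150), another kB match (-103 to -94) and the AP-1 match (-74 to -68).
Cxcl10: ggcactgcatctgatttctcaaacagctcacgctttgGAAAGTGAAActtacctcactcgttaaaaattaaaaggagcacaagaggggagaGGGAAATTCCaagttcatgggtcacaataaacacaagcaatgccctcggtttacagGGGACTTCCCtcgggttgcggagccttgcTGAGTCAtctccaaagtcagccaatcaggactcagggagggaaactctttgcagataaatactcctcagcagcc
Cxcl12, Cxcl15, Ccl8 and Cx3cl1 had none of the motifs in this window, though Ccl8 rose. Matches were also found at ligands outside the 10 that were not called: Ccl9 held a kB match (-35 to -26) and an AP-1 match, with a change of 0.23 ± 0.15, and Cxcl14 held an ISRE and a GAS match, with a change of -0.31 ± 0.18 (limma adjusted p = 0.343).

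**Figure D2:**
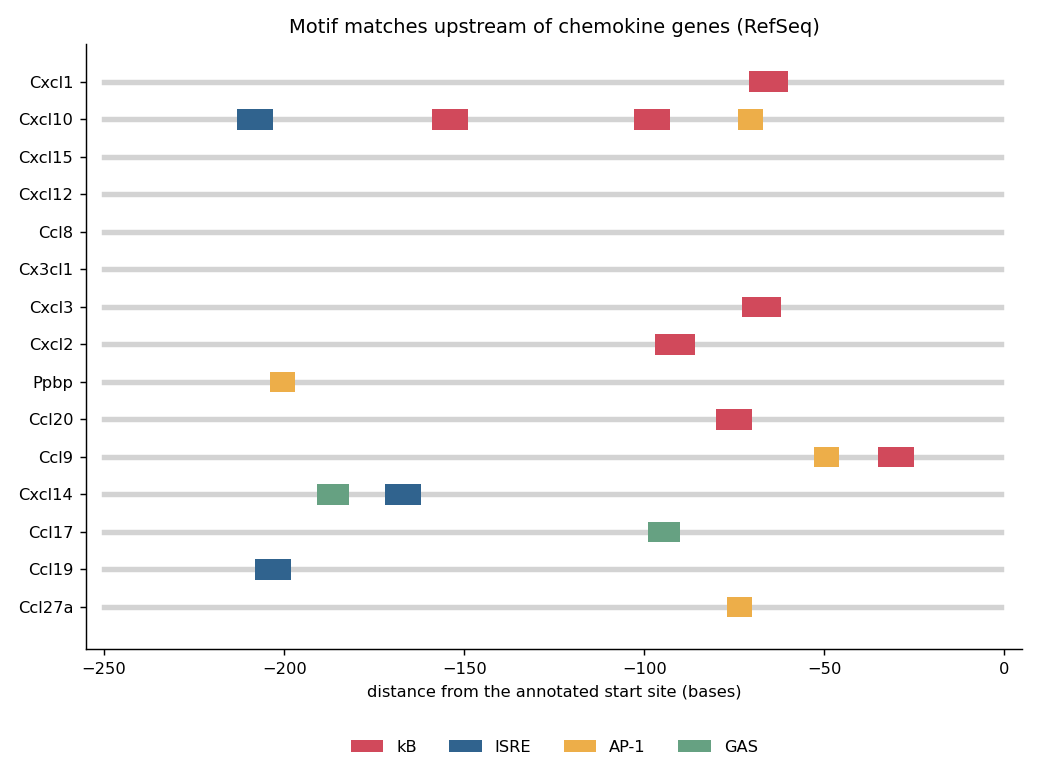
Matches to the kB, ISRE, AP-1 and GAS motifs in the 250 bases before the annotated start of the 6 member genes with a RefSeq promoter (Cxcl1, Cxcl10, Cxcl15, Cxcl12, Ccl8, Cx3cl1) and, below them, of every other listed ligand with a match, called or not (Ccl19 was not measured here under its own symbol); the horizontal axis is the distance from the start site in bases. The kB match of Cxcl1 at -71 to -61 and that of Cxcl3 at -73 to -63 nearly align, and Cxcl10 holds 4 matches.

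Ccl2, Ccl7 and Ccl8, the monocyte chemoattractant proteins, are neighbours in a cluster on chromosome 11, and all 3 rose. Ccl2 (MCP-1), the main ligand of CCR2, had log2 signals of 14.24, 14.11 and 13.27 in GCN5-/- arrays A1, A2 and B, against 13.19, 12.92 and 11.44 in GCN5+/- arrays. The groups did not overlap, although the line B GCN5-/- array was close to the highest line A GCN5+/- array. Ccl2 rose by 1.36 ± 0.14 (log2, SE; 2.56-fold, limma adjusted p = 0.00163). Its differences were 1.04, 1.19 and 1.84 in pairs A1, A2 and B.

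Ccl7 (MCP-3), which uses CCR2 and other CC receptors, had log2 signals of 12.78, 12.83 and 11.39 in GCN5-/- arrays A1, A2 and B, against 11.56, 11.28 and 9.86 in GCN5+/- arrays. As for Cxcl1, the line B GCN5-/- array was not above both line A GCN5+/- arrays, while each pair differed in the same direction by 1.23, 1.55 and 1.53. Ccl7 rose by 1.43 ± 0.09 (log2, SE; 2.70-fold, limma adjusted p = 0.000145).

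Ccl8 (MCP-2) moved least among the 7 genes that rose. It had log2 signals of 8.71, 8.56 and 8.51 in GCN5-/- arrays A1, A2 and B, against 7.87, 7.87 and 7.94 in GCN5+/- arrays, so the groups were apart and the lines nearly level. The change was 0.70 ± 0.10 (log2, SE; 1.63-fold, limma adjusted p = 0.00619). Between Ccl7 and Ccl8 in the gene table lie Ccl11 and Ccl12, eosinophil and monocyte chemokines; both were below the level filter, at fitted changes of -0.08 ± 0.09 and -0.04 ± 0.09.

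Ccl5 (RANTES), a T cell and monocyte chemokine that lies in a separate group on chromosome 11, had log2 signals of 11.37, 11.46 and 11.63 in GCN5-/- arrays A1, A2 and B, against 9.69, 10.02 and 10.44 in GCN5+/- arrays. All GCN5-/- arrays were higher than all GCN5+/- arrays. The rise was 1.44 ± 0.12 (log2, SE; 2.71-fold, limma adjusted p = 0.000551), with pair differences of 1.69, 1.44 and 1.19 in A1, A2 and B. Its neighbour Ccl9 was not called (0.23 ± 0.15, limma adjusted p = 0.409).

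**Figure D3:**
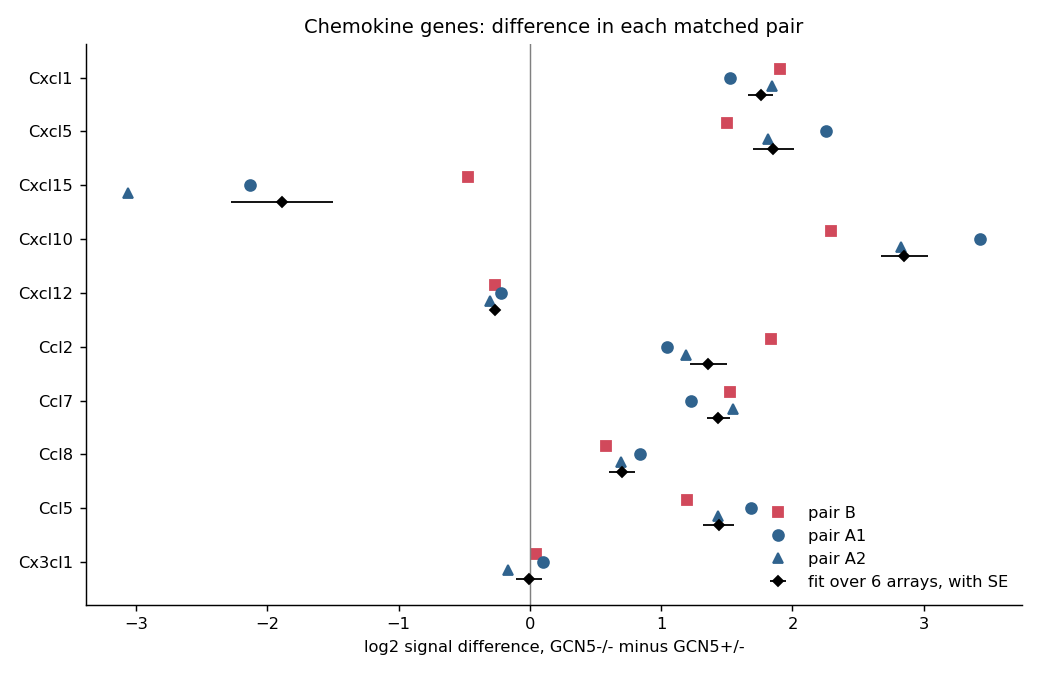
Difference in log2 signal, GCN5-/- minus GCN5+/-, of each chemokine gene in pair B (red squares) and in pairs A1 and A2 (blue circles and triangles), with the fitted change and its SE in black. Cxcl10 lies farthest to the right at 2.30 to 3.43, Cxcl15 spreads from -3.06 to -0.47, and Cx3cl1 straddles 0.

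Of the remaining genes, Cxcl12 fell slightly and Cx3cl1 was not called. Cxcl12 (SDF-1), the CXCR4 ligand that stromal cells make at rest, had log2 signals of 14.40, 14.33 and 13.52 in GCN5-/- arrays A1, A2 and B, against 14.62, 14.64 and 13.78 in GCN5+/- arrays (probe set 1448823_at). Each GCN5-/- array was slightly below its matched array, and duplicates lay within 0.07. Cxcl12 fell by 0.26 ± 0.03 on the log2 scale (SE; limma adjusted p = 0.00484), a 1.20-fold decrease. Its other probe sets fell by 0.32 ± 0.06 (1417574_at) and 0.47 ± 0.10 (1439084_at), with limma adjusted p = 0.0139 and 0.0279. The call at 1448823_at was lost when the duplicates of line A were averaged (adjusted p = 0.0693) and without a variance trend (adjusted p = 0.0861). By mean signal this probe set stood at percentile 99.7 of the array.

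Cx3cl1 (fractalkine), a membrane-anchored chemokine that binds CX3CR1 on monocytes, had log2 signals of 9.23, 9.03 and 9.94 in GCN5-/- arrays A1, A2 and B, against 9.13, 9.20 and 9.89 in GCN5+/- arrays (probe set 1415803_at). The pairs differed by 0.10, -0.16 and 0.04, no more than the 0.20 between the GCN5-/- duplicates. The fitted difference was -0.01 ± 0.10 (SE) with a 95% interval of -0.23 to 0.22 (limma adjusted p = 0.976). The second tested probe set, 1415804_at, was not called either (-0.13 ± 0.11, limma adjusted p = 0.536), and the other pair of probe sets was below the level filter.

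**Figure D4:**
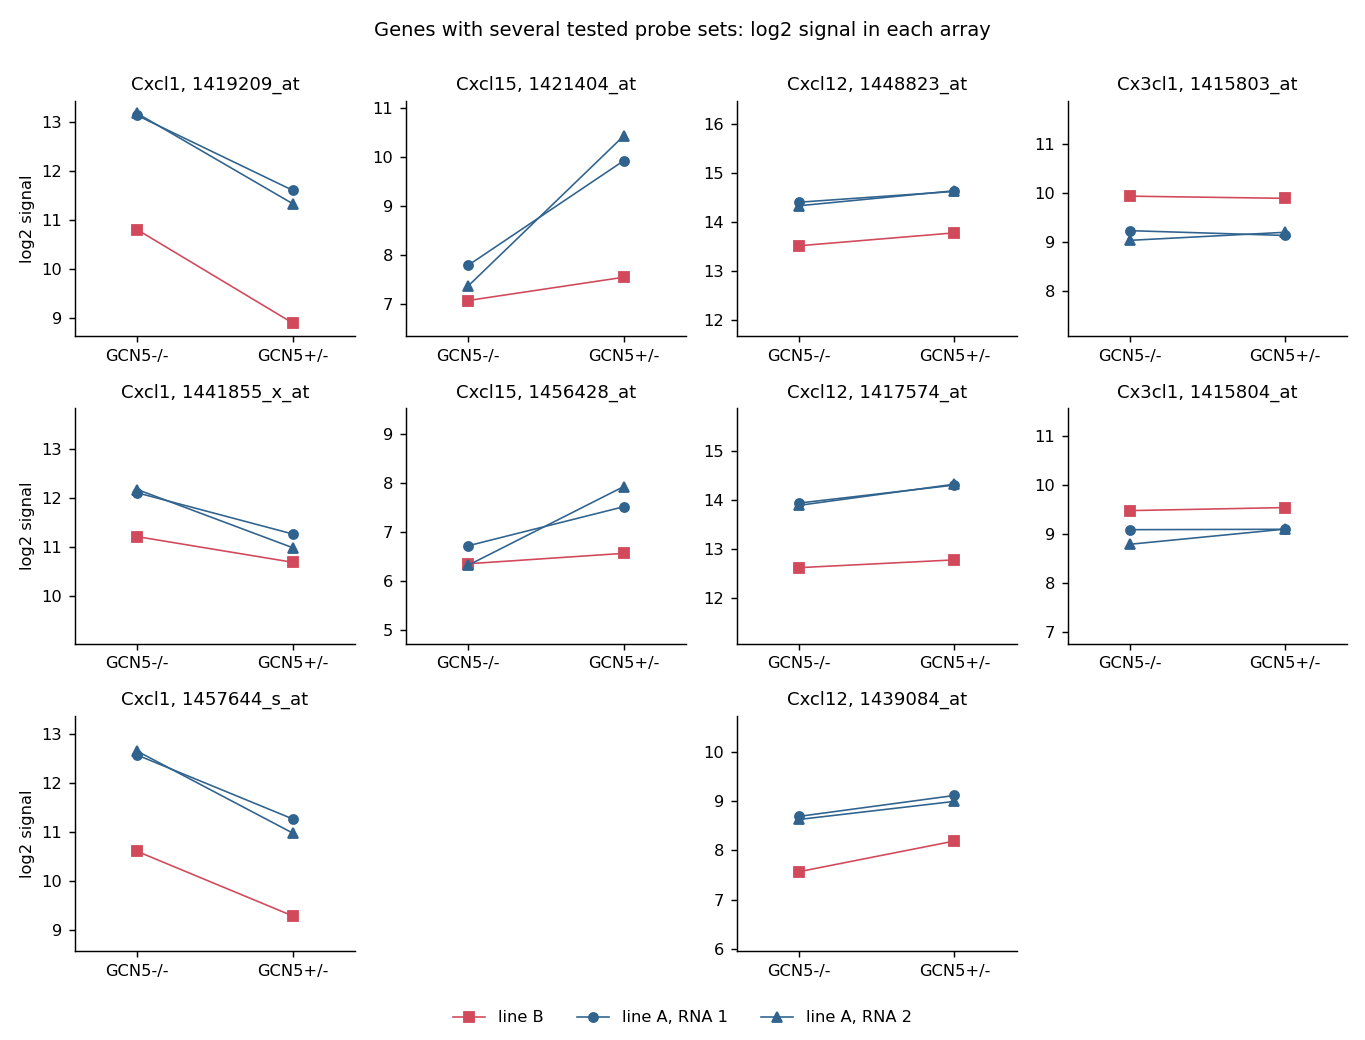
Log2 signal in each array for the 10 tested probe sets of the 4 genes with several, GCN5-/- on the left and GCN5+/- on the right of each panel, lines joining matched arrays (red, line B; blue, line A); all panels span the same number of log2 units. The slopes have the same direction within Cxcl1, Cxcl15 (whose second probe set is near the level filter) and Cxcl12, and probe set 1441855_x_at of Cxcl1 separates the lines less than its other probe sets.

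The lines themselves differed at 7 of the 10 genes (limma, line B minus line A, with genotype as a covariate), 2 higher and 5 lower in line B. Over all tested probe sets 11.6% were higher and 11.5% lower in line B. Cxcl1 had the widest gap: it averaged 9.85 ± 1.35 in line B (SD, n = 2) and 12.31 ± 0.98 in line A (SD, n = 4), a difference of -2.46 ± 0.10 (SE; limma adjusted p = 2.88e-06). Probe set 1441855_x_at of the same gene differed by only -0.68 ± 0.13. Cxcl5 was opposite, at 10.95 ± 1.06 in line B and 9.04 ± 1.19 in line A, a difference of 1.90 ± 0.17 (limma adjusted p = 0.000166). Line B was thus the lower line for Cxcl1 and the higher line for Cxcl5. The SDs given for these line means pool both genotypes, so they include the genotype change and do not measure replicate spread.

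Ccl2 and Ccl7 were lower in line B by log2 differences of -1.26 ± 0.15 and -1.49 ± 0.09 (SE; limma adjusted p = 0.000785 and 2.86e-05). Cxcl12 was lower in line B as well (-0.85 ± 0.04, limma adjusted p = 4.21e-06), and so was Cxcl15 (-1.57 ± 0.41, limma adjusted p = 0.0271). Without the GCN5+/- array of line B, the Cxcl15 difference between lines was -0.51. The Cxcl15 line call was lost when the duplicates of line A were averaged (limma adjusted p = 0.0523). It was also lost without array A1 of GCN5-/- (limma adjusted p = 0.0506) or of GCN5+/- (limma adjusted p = 0.0697). Cx3cl1 was higher in line B by 0.76 ± 0.10 (limma adjusted p = 0.00152). Ccl8 (-0.03 ± 0.10), Cxcl10 (-0.60 ± 0.19) and Ccl5 (0.40 ± 0.13) were not called, with limma adjusted p = 0.896, 0.0534 and 0.0561. The Cxcl10 line difference was called without array A1 of GCN5+/- (-0.73, adjusted p = 0.0303) or array B of GCN5+/- (-1.02, adjusted p = 0.00940), and was -0.19 without array B of GCN5-/- (adjusted p = 0.561). That of Ccl5 was called without array B of GCN5-/- (0.58, adjusted p = 0.0468) and under quantile normalization (0.41, adjusted p = 0.0388), and was 0.21 without array B of GCN5+/- (adjusted p = 0.480).

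**Figure D5:**
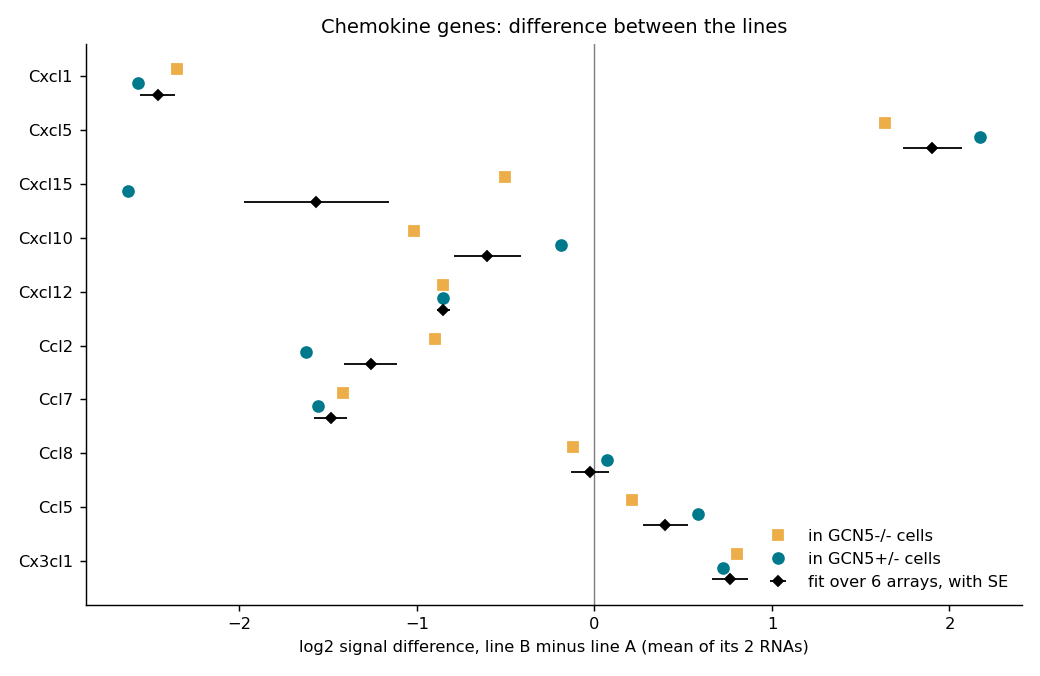
Difference in log2 signal, line B minus the mean of the 2 line A RNAs, within GCN5-/- cells (yellow squares) and within GCN5+/- cells (green circles), with the fitted line difference and its SE in black. Cxcl1 lies near -2.46 and Cxcl5 near 1.90, and the points of Cxcl15 are far apart, at -0.51 in GCN5-/- and -2.63 in GCN5+/- cells.

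Whether the genotype change itself differed between the lines was tested with an interaction term, which rests on 2 residual degrees of freedom from the line A duplicates. None of the 10 genes was called by limma. Over all tested probe sets, 0.0222% were called with a more positive and 0.0259% with a more negative change in line B. An unadjusted limma p under 0.05 was seen at 3 of the 10 genes and at 2071 of the 27022 tested probe sets. The 3 genes were Cxcl15, Ccl2 and Cxcl10, with limma adjusted p = 0.130, 0.225 and 0.411. The Cxcl15 difference was -0.47 in line B and averaged -2.59 in line A, an interaction of 2.12 with a 95% interval of 1.28 to 2.96. For Ccl2 the differences were 1.84 in line B and 1.12 in line A (interaction 0.72, interval 0.37 to 1.08). For Cxcl10 they were 2.30 and 3.13 (interaction -0.83, interval -1.41 to -0.25). These intervals are not adjusted for the number of probe sets. For Ccl7 the line B and line A differences were 1.53 and 1.39, and for Cxcl1 1.90 and 1.68.

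Within line A alone, the same 7 genes were higher and the same 2 lower in GCN5-/- cells (limma adjusted p between 3.28e-05 for Cxcl10 and 0.0121 for Ccl8), against 4.2% higher and 4.39% lower over all tested probe sets. These p-values rest on 1 line and on the spread between its duplicate RNAs, so they do not measure the spread between lines. Line B has 1 array per genotype and gives no test of its own. This comparison shares its arrays with the fit over both lines, so the repeated calls are not separate evidence.

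Other chemokine genes were read in the same way, and the shares over all tested probe sets, 4.2% higher and 4.31% lower, stand beside each count that follows. Of 28 other chemokine ligands listed, 25 were on the array under their own symbol and 15 passed the level filter; 3 of the 15 were called higher and 0 lower (4.2% and 4.31% over all), with a median change of 0.04. Those called were Ppbp and Cxcl3, whose changes are given above, and Ccl20, a CCR6 ligand (0.54 ± 0.09, SE; limma adjusted p = 0.0133). Ccl20 passed the filter only through its GCN5-/- arrays, since its GCN5+/- arrays were all below 6.80, so its call is given as a value and not as support. Of 18 signalling chemokine receptors, 16 were on the array and 3 passed the filter (Ccr2, Cxcr3 and Ccr10), of which 0 were called by limma. Cxcr2 and Cxcr4, the receptors for the ELR chemokines and for Cxcl12, were below the filter in both groups. Of 8 atypical and related receptors, 5 passed and 0 were called. Among them was Ackr3, the scavenger of Cxcl12, which had log2 signals of 10.56, 10.76 and 9.23 in GCN5-/- arrays A1, A2 and B, against 11.17, 11.33 and 9.29 in GCN5+/- arrays (change -0.41 ± 0.13, limma adjusted p = 0.0947).

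A list of chemokine-cleaving proteases, proteoglycans and enzymes that build proteoglycan sugar chains had 1 higher and 3 lower of 21 tested (4.2% and 4.31% over all). Its median was -0.12. The surface proteoglycan gene Sdc3 rose by 0.38 ± 0.06 (log2, SE). The protease gene Mmp14 fell by 0.89 ± 0.14, decorin (Dcn) by 0.73 ± 0.16 and the glypican gene Gpc4 by 0.42 ± 0.10. Limma adjusted p-values ran from 0.00958 to 0.0390.

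Of the signalling genes upstream, 5 of 17 interferon signal transducers rose and 0 fell (4.2% and 4.31% over all), with a median of 0.10. Those with the smallest p were Irf9 (2.14 ± 0.11, SE), Ddx58 (1.90 ± 0.10), Ifih1 (2.19 ± 0.15) and Stat2 (1.95 ± 0.14), with limma adjusted p up to 0.000351. Irf9 and Stat2 are parts of the factor that binds the ISRE, and Ddx58 and Ifih1 sense viral RNA. The NF-kB list had 2 higher and 0 lower of 17 tested (4.2% and 4.31% over all, median 0.18): the inhibitor gene Nfkbia, itself an NF-kB target (0.44 ± 0.08), and the kinase gene Ikbkb (0.28 ± 0.07), with limma adjusted p = 0.0192 and 0.0473. Inflammatory cytokine and receptor genes had 4 higher and 1 lower of 18 tested (4.2% and 4.31% over all, median 0.12). Il6 rose by 1.62 ± 0.21, Lif by 0.84 ± 0.11 and Csf1, a macrophage growth factor, by 0.47 ± 0.05, and the interleukin-1 receptor accessory protein gene Il1rap by 0.74 ± 0.13 (limma adjusted p up to 0.0132). The gene that fell, named here after its values were seen, was the interleukin-1 antagonist Il1rn (-0.91 ± 0.17, limma adjusted p = 0.0201). Tnf and Il1b, inducers of many chemokines, had changes of 0.03 ± 0.10 and 0.00 ± 0.09 and were not called (limma adjusted p = 0.901 and 0.995).

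Profiles most like those of 4 chemokines were sought over the 6 arrays among 12625 other named genes that passed the filter, as a description, since all share line and genotype. For Cxcl10 the closest were Ifi35 (Pearson r = 0.997), Rtp4 (0.996) and Mndal (0.995), all known as interferon-inducible. For Cxcl1 they were Trim30d (0.997), Tdrkh (0.997) and Cd53 (0.996). For Cxcl12 they were Rspo2 (0.998), Plekhf1 (0.998) and Hoxa7 (0.997), and for Ccl2 Odr4 (0.997), Ecm1 (0.994) and Rnf40 (0.991).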

How the data were processed

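The authors deposited 1 table of log2 values, with 1 value per probe set and array; its log2 scale is inferred from the range of the numbers. The submitters' processing notes name MAS5 (6 samples) and Partek (1 sample) with no role, so the normalization and background correction cannot be stated. Medians of the 6 arrays ran from 7.40 to 7.45, so arrays may have been scaled before deposit, which would hide a change shared by most genes. Depth does not apply to arrays; their number limits precision.

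Of 45101 probe sets, 64 controls were left out; 34945 had 1 gene symbol, 932 several and 9160 are unnamed here. Symbols were updated through Entrez identifiers (34741 matched). The table of promoters is RefSeq's, of GRCm38.p6, and held 6 of the 10 genes. No protein sequence was used here.

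Probe sets with a mean log2 signal at or above the 40th percentile (6.80) were tested, 27022 in all, with limma 3.58.1 in R 4.3.3 (lmFit, then eBayes with a variance trend), genotype and line in one model, Benjamini-Hochberg adjustment over all tested probe sets and a threshold of 0.05. The brightest probe set stood for a gene; other probe sets are given by value. Errors are SE of the fit unless marked SD. The script was tested on simulated data.

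Named genes were all probe sets of the 10 chemokines, Kat2a, up to 4 called genes per list by smallest p, and 3 genes of like profile for 4 chemokines. Uncalled or dim genes outside the 10, such as Cxcl2, Ackr3 and Tnf, were named after their values were seen. Members and lists were chosen with earlier results of these data known.

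Replicate names pair arrays by line. Deviations from the group means, which include the line difference, correlated at 0.637, 0.657 and 0.804 for pairs A1, A2 and B, over all probe sets. Crossed arrays correlated at 0.348 (GCN5-/- A1 with GCN5+/- A2) and 0.430 (GCN5-/- A2 with GCN5+/- A1). The main model has a term for line and none for A1 against A2, which the replicate block adds. Duplicate arrays were not copies: 62 and 61 probe sets had identical values in GCN5-/- and GCN5+/- cells. Alternatives covered the line term, replicate block, averaged duplicates, level filter, scaling, variance trend and each array left out.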

Additional observations from a re-analysis of the deposited data

How the results depend on the processing

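The number of the 10 chemokine genes called for genotype was 9. It was 1 without a line term and 3 with line as a random block. It was 7 with averaged line A duplicates and 8 to 9 on leaving out single arrays. With the replicate block (A1, A2 and B in place of line) it was also 9, and no gene's call changed. For the line difference, 7 genes were called, and 6 to 7 on leaving out single arrays of line A. Over all tested probe sets, the line difference was called at 6246, and at 4678 to 5379 on leaving out single arrays of line A. The interaction called 0 genes in each alternative run. Over all probe sets, 2299 were called for genotype, against 69 without a line term, 532 with line as a random block, 709 with averaged duplicates and 645 to 2309 on leaving out single arrays. Over the single genes, 125 genotype values kept direction and side of the threshold, 21 lost the call and 4 changed sign. The sign changes were all Cx3cl1, at 0.00564 with averaged duplicates, 0.000173 with arrays centred on their medians, and 0.0187 and 0.0565 without GCN5+/- A2 and GCN5-/- A2; leaving out single arrays gave -0.0563 to 0.0565. The line difference of Ccl8 changed sign to 0.0196 and 0.0687 without GCN5-/- A1 and GCN5-/- B, within -0.120 to 0.0687 on leaving out single arrays. The cause of these shifts was not tested. Line A supplies 4 of the 6 arrays, and dim probe sets such as those of Cxcl2 bound what the arrays can show.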
